A study of Mus musculus with 48 samples.

Results

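Heated lactating mice did not all induce HSP70 to the same degree, and the genes that moved with that degree are described here. In each of 3 tissues the 8 libraries of heat-exposed dams were ranked by the deposited FPKM (fragments scaled to the length of the gene and the size of the library) of Hspa1b, the heat-inducible HSP70 gene. The 4 highest libraries of a tissue are called strong and the 4 lowest weak. This gave 12 strong and 12 weak libraries, 24 of the 48 in the series; the other 24 came from control dams. Since Hspa1b made the groups, it and its neighbouring paralog Hspa1a are given as descriptions with no test.

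The animals were ICR mice, an outbred stock, aged 10 weeks and on day 13 of lactation. Heat-group cages stood at 36 °C and control cages at 25 °C in a climate incubator, both at 55% relative humidity held within 5%; the sources used here do not give the length of exposure. Dams were killed directly after treatment, and RNA was sequenced from hypothalamus, pituitary and the left inguinal mammary gland (number 4), with 8 heat and 8 control libraries per tissue. The labels number the libraries 1 to 8 within each tissue and treatment but do not say that a number marks 1 dam. Tissues of all dams were collected, so the 24 heat libraries do not stand for 24 animals, and p-values over 3 tissues that count them as separate may be too small.

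HSP70 chaperones bind unfolded stretches of protein and release them for refolding in a cycle driven by ATP. HSP40 proteins deliver clients to HSP70, BAG proteins and HSP110 exchange its nucleotide, small heat shock proteins hold unfolded proteins ready, and the HSP90 system matures signalling proteins. Heat sets the transcription factor HSF1 free from chaperones, and HSF1 trimers bind heat shock elements, repeats of a GAA unit in alternating orientation, before many of these genes.

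A few promoter windows are shown because Hspa1b made the split and Hspb1, Bag3 and Dnajb1 were among the genes that followed it. Each window holds the 250 bases before the RefSeq start on GRCm38.p6, read along the gene. Where RefSeq holds more than 1 entry for a gene, the most upstream was taken. Capitals mark matches to GAANNTTC or TTCNNGAA, each of which is its own reverse complement.
Hspa1b (chr17:34959239-34959488, minus strand): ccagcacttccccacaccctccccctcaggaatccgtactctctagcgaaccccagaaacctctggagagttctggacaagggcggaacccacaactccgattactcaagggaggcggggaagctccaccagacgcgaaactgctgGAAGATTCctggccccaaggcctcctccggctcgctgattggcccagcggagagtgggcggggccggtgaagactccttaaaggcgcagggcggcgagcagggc
Hspb1 (chr5:135887669-135887918, plus strand): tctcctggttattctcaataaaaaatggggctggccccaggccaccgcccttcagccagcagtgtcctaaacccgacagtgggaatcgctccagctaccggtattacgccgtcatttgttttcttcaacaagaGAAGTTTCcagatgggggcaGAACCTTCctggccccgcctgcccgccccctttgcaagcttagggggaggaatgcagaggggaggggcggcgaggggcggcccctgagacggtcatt
Bag3 (chr7:128523333-128523582, plus strand): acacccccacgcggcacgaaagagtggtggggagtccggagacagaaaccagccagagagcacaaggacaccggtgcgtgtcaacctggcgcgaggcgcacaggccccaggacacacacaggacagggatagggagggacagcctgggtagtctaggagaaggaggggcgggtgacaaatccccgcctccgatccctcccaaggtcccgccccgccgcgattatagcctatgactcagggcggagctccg
Dnajb1 (chr8:83607925-83608174, plus strand): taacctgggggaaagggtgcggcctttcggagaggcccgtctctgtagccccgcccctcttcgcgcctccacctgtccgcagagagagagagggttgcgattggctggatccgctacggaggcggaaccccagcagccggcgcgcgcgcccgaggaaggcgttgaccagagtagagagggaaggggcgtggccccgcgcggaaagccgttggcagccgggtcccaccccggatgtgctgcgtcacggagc
The Hspa1b window held 1 such match and the Hspb1 window 2. The Bag3 and Dnajb1 windows held none, which says only that these letters are not in these 250 bases. RefSeq holds 2 entries for Dnajb1, and the window of the other is not reported here. Of 32851 RefSeq windows of this length, 12.8% held a match, and 0.466% held the longer heat shock element of 3 alternating units, which none of the called genes' windows held. The Hspa1a window had the same base as that of Hspa1b at 247 of 250 positions.

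Hspa1b differed widely between heated libraries of 1 tissue. In hypothalamus the strong libraries had 101, 64.2, 47.5 and 45.6 FPKM (numbers 4, 6, 1 and 5) and the weak ones 32.8, 28.3, 19.1 and 10.9 FPKM (numbers 7, 8, 2 and 3), against 3.00 to 8.56 FPKM in 8 controls. In pituitary the strong libraries had 616, 464, 348 and 280 FPKM (numbers 4, 5, 6 and 7) and the weak ones 234, 196, 121 and 30.6 FPKM (numbers 2, 1, 8 and 3), against 2.34 to 7.08 FPKM in controls. In mammary gland the strong libraries had 835, 635, 610 and 552 FPKM (numbers 4, 2, 6 and 5) and the weak ones 306, 175, 157 and 36.5 FPKM (numbers 7, 8, 1 and 3), against 1.74 to 9.78 FPKM in controls. Every weak library thus stood above every control of its tissue. The values on either side of the divide were 45.6 and 32.8 FPKM in hypothalamus, 280 and 234 FPKM in pituitary, then 552 and 306 FPKM in mammary tissue. Hspa1a averaged 117 ± 42.1 FPKM in strong and 31.3 ± 20.5 FPKM in weak pituitary libraries (SD, n = 4 each), and ranking by the sum of both genes gave the same split in all 3 tissues.

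**Figure D1:**
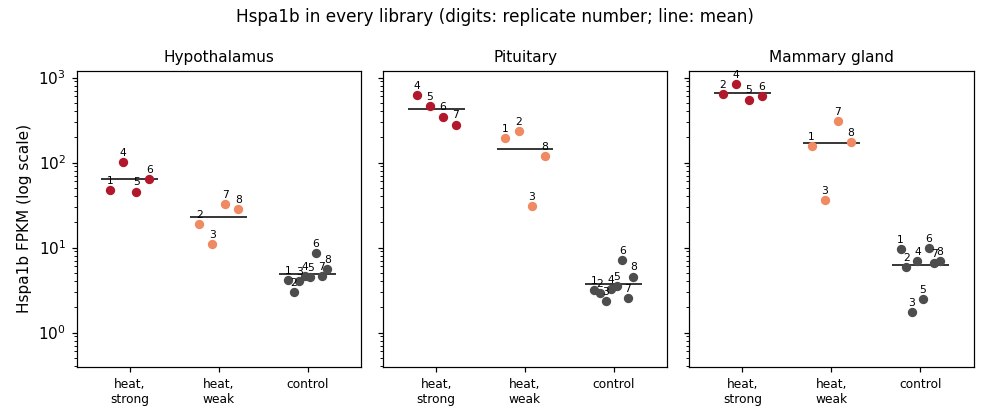
Hspa1b FPKM on a log axis for strong heat, weak heat and control libraries of each tissue; digits are replicate numbers and lines are means. Weak libraries reach down to 10.9, 30.6 and 36.5 FPKM, above the control maxima of 8.56, 7.08 and 9.78 FPKM.

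The same numbers tended to be strong in all tissues. Numbers 4, 5 and 6 were strong in all 3 tissues, numbers 3 and 8 weak in all 3, and numbers 1, 2 and 7 strong in 1. On log2(FPKM + 1), Hspa1b of the 8 same-numbered libraries correlated between mammary gland and pituitary with Pearson r = 0.94 and Spearman rho = 0.81. Between pituitary and hypothalamus r was 0.85 and rho 0.76, and between mammary gland and hypothalamus r was 0.70 and rho 0.50. Without the 2 numbers farthest from the median on the x axis r was 0.84, 0.48 and 0.53 in that order of pairs (n = 6). Without number 3 alone it was 0.81, 0.71 and 0.37. These values describe the measure that made the groups and carry no test.

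**Figure D2:**
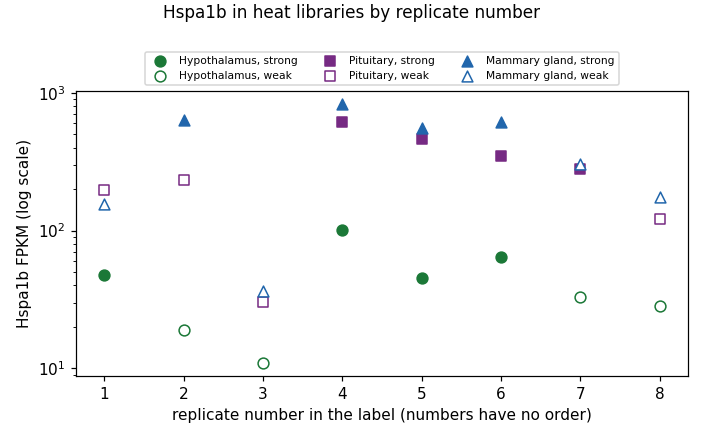
Hspa1b FPKM (log axis) of the heat libraries against the replicate number in the label, with filled symbols for strong and open symbols for weak libraries. Number 4 is the highest and number 3 the lowest in each tissue.

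Some features of the libraries move with the split. Heat libraries held 16272694 to 22166062 fragments on annotated genes in hypothalamus, 10893060 to 17246449 in pituitary, and in mammary gland 11586401 to 17809216. The labels name no sets of libraries, but hypothalamus numbers 1 to 3 differed from numbers 4 to 8 in both treatments: mitochondrially encoded genes took 12.2 to 13.6% of summed FPKM in heat hypothalamus numbers 1 to 3 and 7.18 to 9.12% in numbers 4 to 8, and 13.2 to 13.6% and 6.77 to 8.65% in the controls of those numbers. The same shares overlapped in heat pituitary (4 to 5.38% in numbers 1 to 3 and 3.28 to 4.51% in numbers 4 to 8) and heat mammary gland (3.11 to 5.1% and 3.04 to 3.88%), and in control mammary gland (3.58 to 4.14% and 3.46 to 4.04%), but not in control pituitary (4.81 to 6.52% and 3.74 to 4.76%). In pituitary 3 of 4 weak libraries and no strong one have numbers 1 to 3, so the split and these numbers can hardly be separated there. In hypothalamus and mammary gland each group holds numbers from both ranges. Summed neuron markers were at 327 to 434 FPKM in heat hypothalamus libraries, anterior pituitary markers at 372 FPKM or more in strong and 342 FPKM or more in weak pituitary libraries, and luminal epithelium markers at 52230 to 83840 FPKM in heat mammary libraries. In the heat pituitary libraries markers of the neurointermediate lobe summed to far more, 6635 to 100300 FPKM, and Prl was at 1.02 to 17.6 FPKM.

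Within a single tissue no other gene passed. Strong minus weak differences were tested with limma on log2(FPKM + 1), with Benjamini-Hochberg adjustment over all genes whose mean was at least 1 FPKM and a threshold of 0.05. In hypothalamus 0 of 13950 genes passed (0%), in pituitary 0 of 14075 (0%) and in mammary gland 0 of 12702 (0%). At an unadjusted p under 0.05 these were 544 (3.9%), 1255 (8.92%) and 961 (7.57%) genes, and limma-voom on recovered fragments also called 0 in each tissue, with 512, 1083 and 870 under 0.05. The smallest adjusted p in each tissue was 0.697, 0.518 and 0.39. Without number 8, the 1 weak pituitary library outside numbers 1 to 3, the pituitary split is numbers 4 to 7 against 1 to 3, and 4107 genes passed. These p-values measure how genes went along with Hspa1b among 8 heated libraries, not an effect of heat.

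Averaged over the 3 tissues, 11 genes were higher in strong than in weak libraries and none lower. The test took the mean of the 3 within-tissue differences in 1 limma fit of the 24 heat libraries. It called 11 of 9727 genes (0.113% higher, 0% lower), with 1975 at an unadjusted p under 0.05. The 11 were Bag3, Dnajb1, Hspb1, Ahsa2, Dedd2, Mir7048, Gadd45b, Hmox1, Mboat7, Znfx1 and Gm16310. All 11 had a positive difference in each tissue, and their strong and weak libraries did not overlap for 3 of 11 in hypothalamus, 10 of 11 in pituitary and 7 of 11 in mammary gland. Of all genes tested in a tissue, 0.846, 1.73 and 1.58% were higher without overlap and 1.13, 1.51 and 2.05% lower; since the 11 were selected on these libraries, the counts give no separate support. A term for numbers 1 to 3 left 0 calls, and so did leaving out the pituitary, both added after the data were seen. With the replicate number as a random block the test called 1 gene, Mir7048 (limma adjusted p = 0.0307). Bag3 and Gadd45b then had 0.0775. The adjusted p-values of mean differences given below are from the fit without this block. Without number 3, 4 or 5 the count was 0, without number 1 or 6 it was 1, and without number 2, 7 or 8 it was 33, 22 and 2469. Of the 2469, 1164 were higher and 1305 lower, and without the filter on low values 6 genes were higher and 4 lower.

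Bag3, on chromosome 7, encodes the HSP70 co-chaperone that hands clients to autophagy. Its strong libraries, in order of falling Hspa1b, had 12.1, 15.0, 8.09 and 8.16 FPKM in hypothalamus, and its weak ones 7.22, 7.42, 4.48 and 5.69 FPKM. In pituitary the strong libraries had 102, 54.7, 50.3 and 44.8 FPKM and the weak ones 28.0, 26.1, 22.7 and 16.4 FPKM. In mammary gland the strong libraries had 186, 123, 124 and 91.0 FPKM and the weak ones 85.2, 66.0, 47.5 and 23.3 FPKM. Number 4 was highest in pituitary and mammary gland, and in none of the 3 tissues did the groups overlap. The mean log2 difference was 1.13 ± 0.19 (SE; limma adjusted p = 0.0134), with 0.71, 1.34 and 1.35 in hypothalamus, pituitary and mammary gland.

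Dnajb1, on chromosome 8, encodes an HSP40 partner of HSP70 and was the other gene with no overlap in all 3 tissues. In hypothalamus its strong libraries had 129, 90.7, 66.2 and 80.2 FPKM and its weak ones 56.8, 57.3, 55.5 and 38.8 FPKM. In pituitary the strong libraries had 406, 144, 72.7 and 77.5 FPKM and the weak ones 69.8, 61.3, 41.3 and 34.7 FPKM. In mammary gland the strong libraries had 440, 111, 311 and 176 FPKM and the weak ones 110, 57.4, 50.8 and 32.9 FPKM. The gap was narrow at the divide, 72.7 against 69.8 FPKM in pituitary and 111 against 110 FPKM in mammary gland, while number 4 stood far up. The mean difference was 1.40 ± 0.27 (limma adjusted p = 0.0338). Genes without overlap in all 3 tissues and higher in strong libraries were 2 of 9727 (0.0206%), and lower 0.

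Hspb1, on chromosome 5, encodes the small heat shock protein HSP25 of mice. In hypothalamus it had 62.5, 51.6, 39.9 and 26.8 FPKM in strong and 22.2, 17.9, 16.7 and 13.8 FPKM in weak libraries. In pituitary it had 646, 432, 728 and 282 FPKM in strong and 90.2, 141, 261 and 35.2 FPKM in weak libraries. In mammary gland it had 480, 149, 587 and 205 FPKM in strong and 163, 160, 111 and 60.9 FPKM in weak libraries. Only in mammary gland did the groups overlap, through strong number 2. Its mean difference of 1.64 ± 0.29 was the largest of the 11 (limma adjusted p = 0.0179).

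Dedd2, on chromosome 7, encodes a death effector domain protein of the nucleus. It averaged 13.5 ± 3.65, 30.7 ± 9.78 and 29.3 ± 11.8 FPKM in strong hypothalamus, pituitary and mammary libraries, and 7.97 ± 2.13, 15.5 ± 4.26 and 11.3 ± 4.66 FPKM in weak ones (SD, n = 4 each), a mean difference of 0.98 ± 0.18 (adjusted p = 0.0225). Mir7048 is a miRNA locus of 58 bases that begins 1 base from an exon end within Dedd2, on the same strand; its values rest on 1 to 14 fragments per strong library and 0 to 7 per weak one, and cannot be told apart from reads of unspliced Dedd2. The fit gave it 1.44 ± 0.22 (adjusted p = 0.0134).

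Gadd45b, a stress-inducible regulator of growth arrest and MAP kinase signalling, had weak libraries close to controls on average. It averaged 3.92 ± 0.546, 16.3 ± 1.70 and 6.05 ± 1.49 FPKM in strong hypothalamus, pituitary and mammary libraries, 2.86 ± 0.412, 6.61 ± 4.78 and 2.12 ± 0.951 FPKM in weak ones, and 2.54 ± 0.354, 6.37 ± 1.57 and 2.09 ± 1.03 FPKM in controls (n = 4, 4 and 8). Weak minus control was 0.13, −0.11 and 0.05 (limma adjusted p = 0.908, 0.95 and 0.976). Strong minus weak was 0.98 ± 0.16 on the mean of tissues (adjusted p = 0.0134). In pituitary the weak library number 8 had 13.5 FPKM, close to the lowest strong one at 14.1, while weak numbers 1 to 3 had 2.42 to 5.73 FPKM. The part of numbers 1 to 3 in this difference was not tested.

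The remaining calls were smaller. Ahsa2, an activator of the HSP90 ATPase by its homology, differed by 0.81 ± 0.15 (adjusted p = 0.0338), with 50.2% of its exon bases shared with other genes of the annotation. Hmox1, heme oxygenase of the antioxidant response, differed by 0.42 ± 0.08 (adjusted p = 0.0483). Its mammary libraries had 9.26, 7.26, 9.25 and 11.1 FPKM in the strong and 6.00, 6.87, 4.66 and 4.41 FPKM in the weak group. The groups overlapped in hypothalamus (strong 2.24 to 2.85, weak 1.72 to 2.38 FPKM) and pituitary (strong 3.68 to 5.31, weak 2.675 to 4.43 FPKM). Of 14 antioxidant genes tested, 5 were above 0 on the mean of tissues (median −0.09). Mboat7, a lysophosphatidylinositol acyltransferase, differed by 0.40 ± 0.07 (adjusted p = 0.0179), and Znfx1, a helicase that senses double-stranded RNA, by 0.35 ± 0.07 (adjusted p = 0.0483). The predicted gene Gm16310 differed by 0.88 ± 0.16 (adjusted p = 0.0332). Of the 8 called genes with a RefSeq window, 2 (Hspb1 and Znfx1) held a match to GAANNTTC or TTCNNGAA, against 12.8% of all windows. The longer element of 3 units was in 0 of them.

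Within each range of numbers, Bag3 differed by 0.59 in hypothalamus for numbers 1 to 3 and by 0.59 for numbers 4 to 8, and by 1.87 and 0.78 in mammary gland. Dnajb1 differed by 0.51 and 0.79 in hypothalamus and by 1.43 and 1.87 in mammary gland, and Hspb1 by 1.35 and 1.13 and by 0.86 and 1.28. In pituitary only numbers 4 to 8 hold both groups, 4 strong against 1 weak library, with 1.38 for Bag3, 1.71 for Dnajb1, 0.93 for Hspb1, 0.52 for Dedd2 and 0.27 for Gadd45b. The pituitary difference of Gadd45b over all 8 libraries was 1.37. These values rest on as few as 1 library on a side and carry no test.

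**Figure D3:**
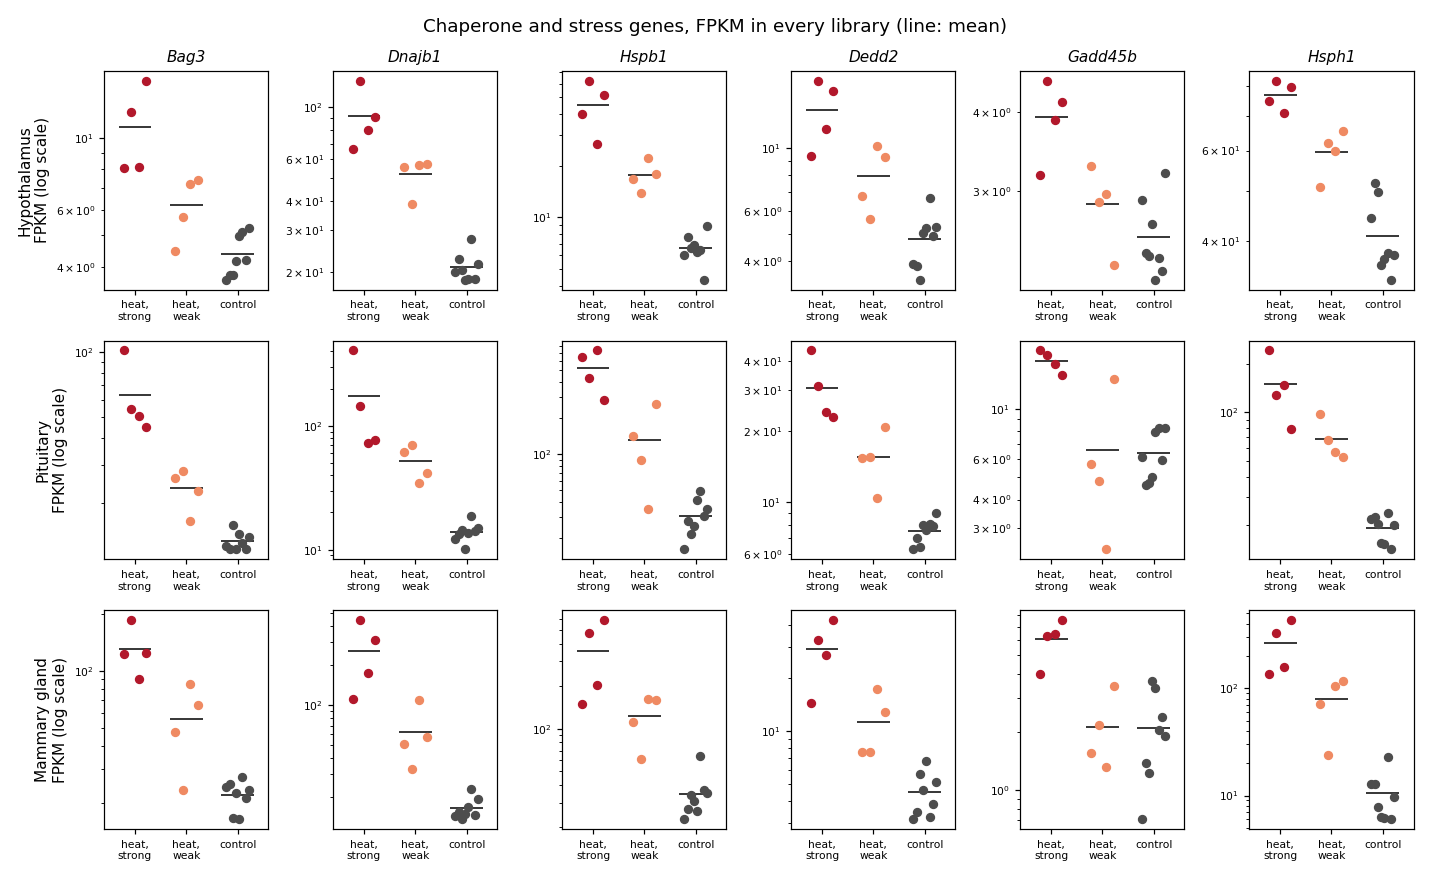
FPKM on log axes of Bag3, Dnajb1, Hspb1, Dedd2, Gadd45b and Hsph1 (columns) in strong, weak and control libraries of each tissue (rows); lines are means. Weak libraries lie between strong libraries and controls on average for the chaperones, while weak and control means of Gadd45b are 6.61 and 6.37 FPKM in pituitary and 2.12 and 2.09 FPKM in mammary gland.

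Hsph1, the HSP110 gene, missed the threshold in the mean over tissues at 1.07 ± 0.24 (adjusted p = 0.0665). Its strong libraries had 82.0, 79.7, 74.7 and 71.1 FPKM in hypothalamus, against 59.9, 65.6, 51.0 and 62.1 FPKM in weak ones, without overlap. Mammary libraries had 329, 137, 432 and 158 FPKM in the strong and 105, 116, 71.5 and 23.9 FPKM in the weak group, again without overlap; in pituitary strong number 7 at 78.5 FPKM lay below weak number 1 at 97.5 FPKM. Others just outside were Jmjd6, a lysyl hydroxylase (0.52, adjusted p = 0.056), the HSP40 gene Dnaja4 (0.80, 0.0665), Hsp90ab1 (0.56, 0.0692), the immediate early receptor gene Nr4a1 (1.42, 0.0692) and Serpinh1, the collagen chaperone HSP47 (0.75, 0.0736).

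Bag3 and Dnajb1 made up the genes higher without overlap in all 3 tissues. They were 2 of 9 genes that were so in both pituitary and mammary gland, 2 of 7 in both hypothalamus and mammary gland, and 2 of 6 in both hypothalamus and pituitary. These counts are 1 observation and not 3, since each returns the same pair. Of the 9727 genes tested in all 3 tissues, 0.833, 1.52 and 1.59% were higher without overlap in hypothalamus, pituitary and mammary gland, and 0.946, 1.21 and 2.03% lower; since the groups share most of their numbers across tissues, these shares are no level for unrelated tissues. No gene was lower without overlap in all 3 tissues, of 4, 2 and 4 that were so in the same pairs of tissues. Over all 9727 genes, 19.8% were higher and 24.1% lower in all 3 tissues. The 10 genes whose log2(FPKM + 1) followed Hspa1b most closely, by the mean over tissues of Pearson r across 8 heat libraries, were Bag3 (0.91), Dnajb1 (0.89), Dedd2 (0.88), Hspb1 (0.87), Dnaja4 (0.87), Jmjd6 (0.86), Znfx1 (0.85), Ahsa2 (0.85), Mboat7 (0.85) and Ppargc1b (0.84); libraries of a tissue can share a preparation, and these values are descriptions. Mzt1, a small protein of the gamma-tubulin complex, was the 1 gene lower in strong libraries among the 10 with the smallest largest p over tissues, at −0.51, −0.63 and −0.55 in hypothalamus, pituitary and mammary gland.

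No chaperone list held a call within a tissue, and the lists differed. Of 22 chaperone and heat-responsive genes, 18 were above 0 in hypothalamus, 20 in pituitary and 19 in mammary gland, with medians of 0.17, 0.71 and 0.63 on the log2 scale, against medians of all genes within 0.01 of 0. Unadjusted p was under 0.05 for 6, 17 and 9 of them, all higher, where 326 of 13950, 763 of 14075 and 547 of 12702 of all genes were so, and 0 passed adjustment in each tissue. Whole families were more mixed in hypothalamus: 4 of 12 HSP70 and HSP110 genes, 5 of 13 HSP40 genes, 5 of 9 small HSP and BAG genes and 4 of 10 chaperonin genes were above 0 there. Medians in hypothalamus, pituitary and mammary gland were −0.03, 0.13 and 0.06 for HSP70 and HSP110, −0.04, 0.01 and 0.09 for HSP40, and 0.03, 0.16 and 0.17 for small HSP and BAG genes. HSP90 and its co-chaperones had medians of 0.15, 0.43 and 0.35 over 15 genes. Hsp90aa1, the inducible cytosolic HSP90, averaged 315, 377 and 839 FPKM in strong and 302, 205 and 251 FPKM in weak hypothalamus, pituitary and mammary libraries. Its mammary groups did not overlap (difference 1.67 ± 0.52) and its hypothalamic ones did (0.08 ± 0.13). Whether that difference itself differed between tissues did not pass the F test described further on.

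Constitutive and compartment-specific members varied. Hspa8, the constitutive HSP70, averaged 134, 224 and 514 FPKM in strong and 127, 145 and 273 FPKM in weak libraries of hypothalamus, pituitary and mammary gland. Hspa5, the HSP70 of the endoplasmic reticulum, averaged 87.3, 198 and 217 FPKM in strong and 92.7, 201 and 233 FPKM in weak ones. The 19 chaperone and degradation genes of the endoplasmic reticulum had medians of −0.01, −0.10 and −0.09, and the 10 chaperonin genes −0.05, 0.26 and 0.18. Mitochondrial Hspd1 and its partner Hspe1 were at 0.05 and 0.11 in hypothalamus. Their pituitary differences were 0.66 and 0.83, and their mammary ones 0.68 and 0.69. Hsf1 itself differed by 0.33, 0.41 and 0.02, and the cold-inducible RNA-binding genes Cirbp and Rbm3 by −0.18, −0.15 and −0.09 and by 0.13, 0.02 and −0.08; none passed. Collagen folding genes had medians of 0.28, 0.37 and 0.27 over 10, 10 and 8 genes. Immediate early genes had medians of 0.52, 0.59 and 0.18 over 19, 19 and 12 genes: Fosb led in hypothalamus (0.65), Nr4a1 in pituitary (2.39) and Egr1 in mammary gland (1.09), each without passing.

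**Figure D4:**
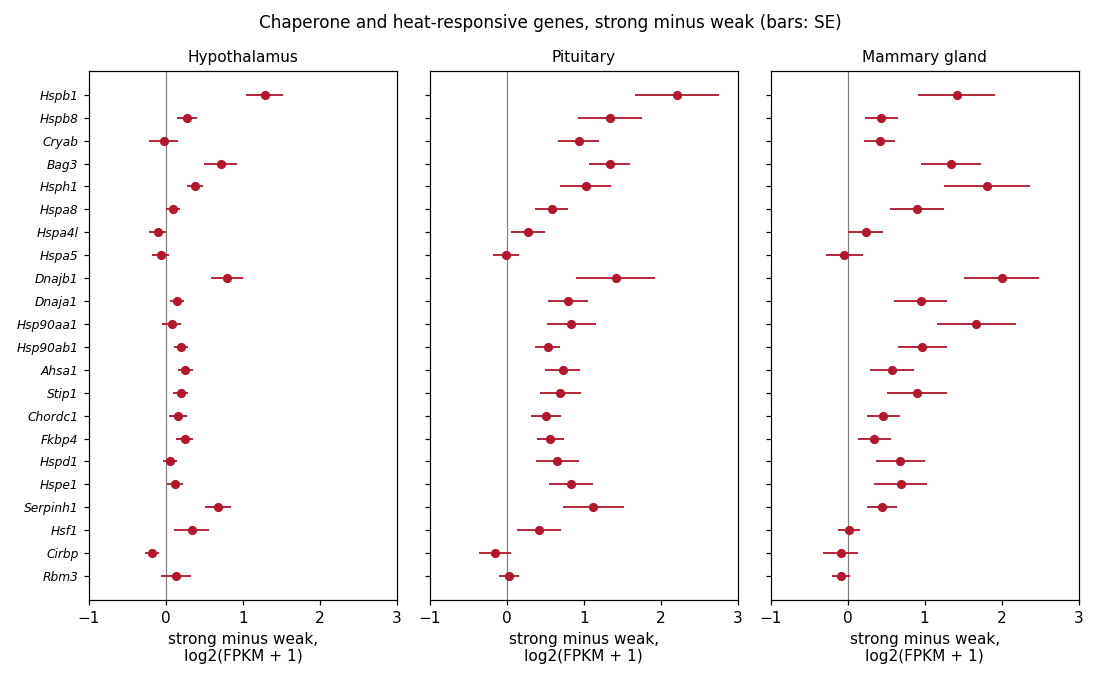
Strong minus weak difference on log2(FPKM + 1) with its SE (bars) for 22 chaperone and heat-responsive genes in each tissue. Hspb1 stands at 1.28, 2.21 and 1.42, while Hspa5 stands at −0.07, −0.01 and −0.04.

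In hypothalamus the genes of smallest p included few chaperones. Those higher were Hspb1 (1.28), Mir874 (1.06), Col6a1, a collagen VI chain (0.72), the potassium channel gene Kcnj4 (0.68), Serpinh1 (0.67) and Map2k3os (0.49). Mir874 is a miRNA locus of 76 bases, and the fragments behind its value are not given here. Those lower were Vip, C1ql3 (−0.63), Rpa3 (−0.48), Ccdc121 (−0.43), Hint3 (−0.35) and Sgpp2 (−0.35); all 12 had a limma adjusted p of 0.697. Vip encodes a peptide of suprachiasmatic neurons that synchronises the daily clock. It had 1.58, 0.687, 1.04 and 2.42 FPKM in strong and 2.85, 4.50, 10.6 and 7.35 FPKM in weak libraries, with 0.659 to 5.33 FPKM in controls. The groups did not overlap, and the 2 highest values were numbers 2 and 3. Vip marks a small nucleus, and in bulk tissue fewer cells of a type and less RNA per cell cannot be told apart.

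In pituitary Prl, the prolactin gene, was lower in strong libraries by 1.58 ± 0.42 on the log2 scale without passing (adjusted p = 0.518). It had 1.02, 1.30, 4.57 and 3.57 FPKM in strong and 4.74, 8.68, 7.89 and 17.6 FPKM in weak libraries, with 9.13 to 43.9 FPKM in controls. The groups did not overlap, though strong number 6 came close to weak number 2. Of 12 pituitary hormone genes, 8 were above 0 (median 0.16), a list that shares Pomc and Pcsk2 with the neurointermediate lobe markers. So were 5 of 8 anterior pituitary markers (median 0.16), with 0 higher and 2 lower at an unadjusted limma p under 0.05. Of all 14075 genes, 763 were higher and 492 lower at that p. All 8 neurointermediate lobe markers were above 0 (median 1.02), 1 of them at that p. Other genes of small p were mt-Co2, mt-Co3 and mt-Nd4l, subunits of the mitochondrial respiratory chain, at 0.97, 0.94 and 0.88, while all mitochondrially encoded genes together took 3.28 to 4.51% of summed FPKM in strong and 3.35 to 5.38% in weak libraries (medians 3.58 and 4.50%). With positive differences followed Phyhip (0.66), Bag3 and Mir697 (1.10), a miRNA locus of 109 bases whose fragments are not given here. With negative ones followed Vwde (−0.72), the neural stem cell filament gene Nes (−0.68), the death ligand gene Tnfsf10 (−0.57), Kdelc2 (−0.47) and Meis2 (−0.44). Summed markers of the neurointermediate lobe (8 genes) ran from 32510 to 100300 FPKM in strong, 6635 to 79510 FPKM in weak and 2176 to 42910 FPKM in control libraries, and summed astrocyte markers from 32.6 to 38.6, 15.2 to 32.5 and 17.1 to 37.9 FPKM. The part of these markers and of numbers 1 to 3 in the Prl difference was not tested.

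In mammary gland the difference of Rasl11b, a small GTPase gene of the RAS family, was unlike that of the other tissues. It had 1.93, 9.38, 7.40 and 3.61 FPKM in strong and 0.324, 0.448, 0.493 and 0.132 FPKM in weak libraries, with 0.350 to 9.08 FPKM in controls. Of the strong libraries 3 lay within the control range and number 2 just above it; of the weak ones 2 lay below it and 2 near its lower end. Rasl11b was the 1 gene of 9727 (0.0103%) to pass the limma F test of a difference between tissues (adjusted p = 0.0269): 2.14 in mammary gland, against −0.13 in hypothalamus and −0.18 in pituitary. That count was 0 without number 3, 5, 6 or 7, and 212 without number 8. The weak mammary values of Rasl11b are low for this depth. In heat mammary libraries 3 fragments in a gene of 1 kb equal 0.322 to 0.60 FPKM, and Rasl11b has 2161 exon bases.

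Other mammary genes had non-overlapping groups without passing. H2-Eb1, an MHC class II chain of antigen-presenting cells, had 36.7, 21.0, 57.9 and 47.1 FPKM in strong and 10.9, 3.99, 0.600 and 2.66 FPKM in weak libraries, a difference of 3.20 ± 0.57 (adjusted p = 0.521); controls ran from 0.861 to 45.8 FPKM. Summed T cell markers (8 genes) were at 79.2, 1.21, 92.3 and 122 FPKM in those strong libraries and 1.66, 62.9, 1.71 and 1.96 FPKM in the weak ones, with 1.30 to 111.5 FPKM in controls. So T cell markers were high in 3 of 4 strong libraries and 1 of 4 weak ones, while H2-Eb1 was also raised in strong number 2 and low in weak number 8; their part in the difference was not tested. Trib3, a pseudokinase of the integrated stress response, had 19.4, 17.7, 20.1 and 17.6 FPKM in strong and 38.8, 24.2, 32.7 and 32.7 FPKM in weak libraries, with 10.5 to 31.0 FPKM in controls (difference −0.71 ± 0.14, adjusted p = 0.521). Selenoh (0.84), Rps18 (0.84), the RNA-decay gene Zfp36l1 (0.71) and the mTOR inhibitor gene Deptor (−0.76) were also among the 12 of smallest p. Itpripl2 (−0.65), Fkbpl (−0.62), Tmem51 (−0.54) and Mir103-2 (−2.23) completed the 12, with Mir7048. Mir103-2 is a miRNA locus of 86 bases, and the fragments behind its value are not given here. The 22 cholesterol synthesis genes were all below 0, with a median of −0.30 and none past the threshold, and milk protein genes had a median of −0.16 over 15 genes. Of 8 adipocyte markers 7 were also below 0 (median −0.53), their sum at 812.5 to 1054 FPKM in strong, 926.3 to 1410 FPKM in weak and 608.6 to 1088 FPKM in control libraries, and 6 of 6 myoepithelium markers were below 0 (median −0.17). Of 6 luminal epithelium markers 1 was above 0 (median −0.22), while all 8 T cell and all 6 B cell markers were (medians 1.55 and 1.48). The part of these markers in the cholesterol synthesis values was not tested.

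**Figure D5:**
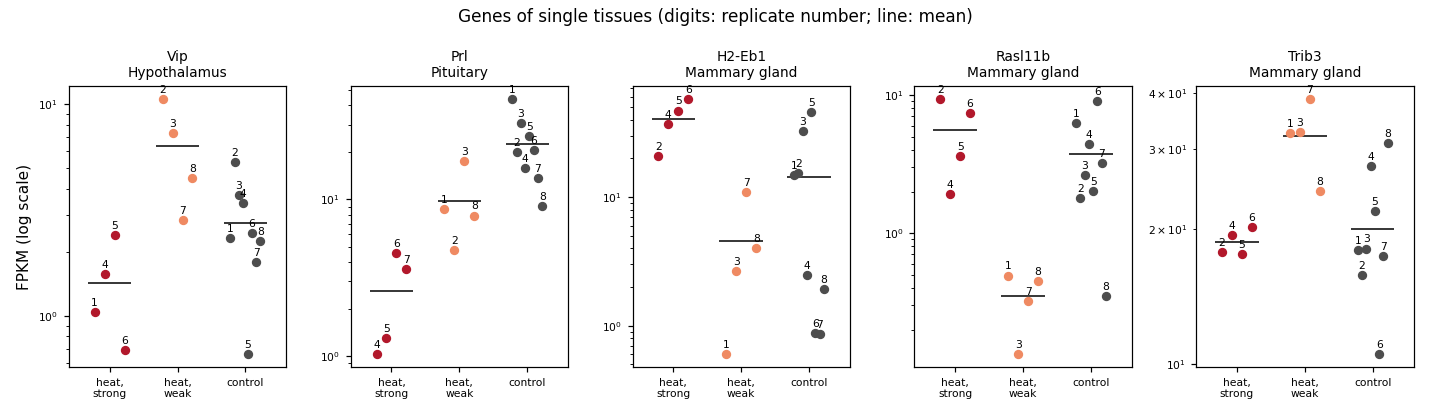
FPKM on log axes of Vip in hypothalamus, Prl in pituitary, and H2-Eb1, Rasl11b and Trib3 in mammary gland, in strong, weak and control libraries; digits are replicate numbers and lines are means. Strong and weak libraries do not overlap in any panel.

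Chaperone genes were among those higher in weak libraries than in controls. In limma fits of strong, weak and control libraries of a tissue, weak minus control called 6 genes higher in hypothalamus (0.0431% of 13920) and 0 lower (0%), 51 higher (0.363%) and 25 lower (0.178%) of 14050 in pituitary, and 52 higher (0.414%) and 26 lower (0.207%) of 12564 in mammary gland. Of the 22 chaperone and heat-responsive genes, weak libraries were higher for 2 in hypothalamus, for 10 in pituitary and for 8 in mammary tissue, and Cirbp was lower in pituitary (−0.94, adjusted p = 0.00879). Dnajb1 was the 1 gene of the 22 called in all 3 tissues, by 1.27 ± 0.16, 1.80 ± 0.35 and 1.75 ± 0.33 (adjusted p = 0.00314, 0.0255 and 0.027). The comparison shares its weak libraries with strong minus weak, so a low weak group enters both with opposite sign.

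In hypothalamus the 6 were Ccdc117, Dnajb1, Hspb1, Dnaja4, Rab39 and Arrdc4. Ccdc117 averaged 14.2 ± 1.24 FPKM in strong, 11.2 ± 1.33 in weak and 5.63 ± 0.597 in control libraries, a weak minus control difference of 0.89 ± 0.09 (adjusted p = 2.75e-04). Hsph1 was higher in weak libraries by 1.79 ± 0.24 in pituitary and 2.70 ± 0.44 in mammary gland (adjusted p = 0.00349 and 0.0149). Hspa8 was higher by 1.00 and 1.59, Hsp90aa1 by 1.51 and 1.75, Hsp90ab1 by 0.84 and 1.28 and Chordc1, an HSP90 co-chaperone, by 1.06 and 0.93 in pituitary and mammary gland. Stip1, which bridges HSP70 and HSP90, Fkbp4 and Hspa4l were also higher in weak pituitary libraries, by 1.02, 0.66 and 0.78, and Dedd2 by 0.95. Bag3 did not pass in any tissue, at 0.42, 0.77 and 1.17 (adjusted p = 0.732, 0.0671 and 0.0617). The counts rested on single libraries: with 1 heat or control library left out they ran from 2 to 8 in hypothalamus, from 16 (without heat number 1) to 889 (without heat number 8, when weak libraries are numbers 1 to 3 alone) in pituitary, and from 14 (without heat number 1) to 100 (without heat number 2) in mammary gland.

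In control libraries, which the ranking did not use, no gene's slope on Hspa1b passed in any tissue (0 calls by limma). At an unadjusted p under 0.05 were 5638 of 13912 genes in hypothalamus, 974 of 13981 in pituitary and 776 of 12276 in mammary gland. Hspa1b spanned 3.00 to 8.56, 2.34 to 7.08 and 1.74 to 9.78 FPKM in these controls, a narrower range than among heated libraries. In hypothalamus it was at 3.00 to 4.16 FPKM in control numbers 1 to 3 and 4.54 to 8.56 FPKM in the other controls, without overlap. In pituitary and mammary gland the same sets of controls overlapped. The part of numbers 1 to 3 in the hypothalamus slopes was not tested.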

How the data were processed

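Per the labels' protocols, 3 µg of RNA per sample entered library preparation. The authors deposited 1 table of FPKM values per library, 58913 genes in each, of which 53274 had a symbol. The submitters' processing notes name HISAT2 2.0.5, featureCounts 1.5.0-p3, DESeq2 1.16.1 and the build mm9, with no role or order. Depth was read from the deposited FPKM steps, which are whole fragments within a tolerance of 0.02 for 94.7 to 96.9% of values under 50 fragments; libraries held 10893060 to 22166062 fragments on annotated genes. Groups follow the labels and, within heat, the Hspa1b rank.

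FPKM were divided by median-ratio factors within a tissue, genes with a mean of at least 1 FPKM kept, and log2(FPKM + 1) tested with limma 3.58.1 (trend) in R 4.3.3, p-values adjusted by Benjamini-Hochberg and called under 0.05. All adjusted p-values for genes are from limma; fold changes are on the log2(FPKM + 1) scale, which understates low genes. Error after ± is SE for differences and SD for FPKM. Python 3.11.15 with scipy 1.17.1 gave the correlations; a planned permutation test of Hspa1b between tissues is not reported, since Hspa1b made the groups. Fits were tested on simulated data. Alternatives were other scalings, pseudocounts, filters, splits, a term for numbers 1 to 3 within tissues, a replicate block and left-out libraries. After the data were seen, limma-voom on recovered fragments was added. For the mean over tissues, so were the term for numbers 1 to 3 and leaving out the pituitary. Named genes per tissue were the 6 of smallest p in each direction, list leads, 22 chaperone and heat-responsive genes (1 more of that list is not reported here), the 10 closest to Hspa1b and the 10 with the smallest largest p over tissues; predicted genes were left out by this rule, and Gm16310 is named as 1 of the 11 calls. Members and lists were chosen with earlier results of these data known. Promoters are from RefSeq, GRCm38.p6, used for sequence only. Nothing in the labels says that replicates are separate litters or days, so p-values measure only the spread between these samples.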

Additional observations from a re-analysis of the deposited data

Results flagged for a closer look

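Among 87 groups of 4 or 8 libraries checked, 6 held a library far from the rest, where chance flags about 1 in 20. In weak hypothalamus libraries number 3 had 38.8 FPKM of Dnajb1, below the others at 55.5 to 57.3 FPKM; it was also the lowest for Hspa1b. The other 5 were control libraries. Number 6 stood highest for Dnajb1 in hypothalamus (27.5 FPKM, others 18.6 to 22.8), for Hspa1b in pituitary (7.08 FPKM, others 2.34 to 4.56), and in mammary gland for Hspb1 (64.7 FPKM, others 22.9 to 37.0) and Hsph1 (23.0 FPKM, others 6.04 to 12.8). Control pituitary number 4 stood highest for Hmox1 (6.79 FPKM, others 2.45 to 3.94). Rasl11b differed between tissues in its strong minus weak difference, by 2.27 on the log2 scale for mammary gland minus hypothalamus (limma F test, adjusted p = 0.0269).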

How the results depend on the processing

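Within tissues, counts of calls moved from 0 to 1 without the low-value filter in hypothalamus and pituitary, to 5 and 1 with a slope on Hspa1b in hypothalamus and mammary gland, to 1 with 3 libraries against 3 in pituitary, and to 1 with controls in the fit in pituitary and mammary gland. With 1 library left out the pituitary count ran from 0 to 4107 and the mammary count from 0 to 1. The 11 calls averaged over tissues became 9 to 14 under other scalings, pseudocounts and filters (6 higher and 4 lower without filter, 1 lower with quantile normalization and with a pseudocount of 0.1, else none lower), 0 with a term for numbers 1 to 3, 0 without pituitary, and 0 to 2469 with a number left out. Each of the 11 kept a positive difference in all alternatives that gave it a value and was called in 5 to 10 of 16 or 17. The single call of a difference between tissues became 0 with quantile normalization, 2 with a pseudocount of 0.1, 24 without filter, 0 with a filter of 5 FPKM and 0 to 212 with a number left out. Weak minus control called 2, 50 and 34 genes without filter in hypothalamus, pituitary and mammary gland, 47 in pituitary with a filter of 5, and 2 to 8, 16 to 889 and 14 to 100 with a library left out. Slopes in controls called 0 to 1 in hypothalamus and mammary gland with a library left out.

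No paired analysis was possible within a tissue for strong against weak because they hold different numbers. Same-numbered heat libraries of different tissues deviated together in 23 of 24 pairs by a correlation over 0.1 (range 0.053 to 0.656), and in 21 of 24 the own number correlated best, a hint from the data and not the design. With the replicate block the mean over tissues called 1 gene, Mir7048 (limma adjusted p = 0.0307); Bag3 and Gadd45b had 0.0775, Hspb1 0.0892, Gm16310 and Mboat7 0.143, Dedd2 0.15, and Dnajb1, Ahsa2, Hmox1 and Znfx1 0.237. The same random block called 2 genes for the difference between tissues. For weak minus control the number was instead a fixed term, shared by the heat and control libraries of that number. That fit called 2, 7 and 0 genes in hypothalamus, pituitary and mammary gland. The labels do not pair heat with control libraries.

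The correlation of Hspa1b between mammary gland and hypothalamus was r = 0.71 with a pseudocount of 0.1 and 0.72 with Hspa1a added. With a number left out r ran from 0.71 to 0.93 for pituitary and hypothalamus, 0.37 to 0.91 for mammary gland and hypothalamus, and 0.81 to 0.97 for mammary gland and pituitary.

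Of 168 results for single genes, 1785 values under other settings kept direction and call in 1679, lost the call in 85 and gained it in 7. A result that had not passed and stayed so counts as kept. With a library left out, 1543 values kept both in 1308, lost the call in 178, gained it in 40 and reversed in 17. Under the other settings 14 reversed, all of differences that had not passed. With the term for numbers 1 to 3 these were Rbm3 in hypothalamus (−0.013) and pituitary (−0.28), Hspa5 in pituitary (0.29), Hsf1 in pituitary (−0.55) and mammary gland (−0.054) and Cryab in hypothalamus (0.066). With 3 against 3 they were Hspa5 (0.078) and Hsf1 (−0.012) in mammary gland and Cryab in hypothalamus (0.050). With the slope they were Hspa5 in mammary gland (0.089), Hspd1 (−0.0077) and Hsp90aa1 (−0.012) in hypothalamus; with limma-voom Hspa5 in pituitary (0.0067); with quantile normalization Hsf1 in mammary gland (−0.0071). With a library left out, ranges that crossed 0 were −0.26 to 0.058 for Cirbp in mammary gland and −0.28 to 0.017 in pituitary, −0.16 to 0.10 for Cryab in hypothalamus, −0.061 to 0.12 for Hsf1 in mammary gland, −0.27 to 0.087 for Hspa5 in mammary gland and −0.11 to 0.097 in pituitary, and −0.050 to 0.12 for Rbm3 in pituitary. The causes were not tested.

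Depth limits low values. In a gene of 1 kb, 3 fragments equal 0.105 to 0.143 FPKM in hypothalamus and 0.11 to 0.167 FPKM in pituitary. For mammary gland they equal 0.322 to 0.60 FPKM. A fragment weighs more in shorter loci, such as the miRNA loci named above.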
